A study of Mus musculus with 13 samples.

Results

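The 10 libraries described here came from irradiated mouse submandibular glands, and they were sorted by how many of their reads fell on a few abundant genes. The 20 genes with the highest mean share of reads over all 13 libraries of the series were taken, and their shares were summed in each library. The 5 irradiated libraries under 51% are called low-share libraries and the 5 at or above 51% high-share libraries. The low-share libraries are PreIR-GFP 1, PreIR-GFP 2, PreIR-GFP 5, PreIR-NTN 2 and PreIR-NTN 3, and the high-share libraries are PreIR-GFP 3, PreIR-GFP 4, PreIR-NTN 1, PreIR-NTN 4 and PreIR-NTN 5. Because the sides were chosen by measured shares, and reads outside the 20 genes are the remainder, differences between the sides are given as descriptions, with no test. Genes outside the 20 are the subject.

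PreIR-GFP glands received AAV2-GFP, an adeno-associated virus carrying green fluorescent protein, and PreIR-NTN glands received Cere-120, such a vector carrying neurturin (NTN), in each case 10 days before irradiation (5 libraries per vector). The 3 NonIR libraries came from glands that were not irradiated, and the labels do not say whether they received a vector. All mice were of strain CH3, per the labels, and glands were taken on day 300 after treatment, at an age of 1 year. The labels name neither the promoter of the vectors nor the irradiation dose, and nothing ties a replicate to a separate animal, so that p-values measure only the spread between these libraries. Totals ran from 9724301 to 16771003 reads per library. The low-share libraries held 9724301 to 15397759 reads and the high-share libraries 14601260 to 16771003.

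The submandibular gland makes saliva. Its acinar cells secrete mucins and small defence proteins, and in mice the granular convoluted tubules of its ducts secrete kallikreins and growth factors, so that a few secretory messenger RNAs (mRNAs) take up much of the RNA. The respiratory chain is taken here together with ATP synthase, which makes ATP in mitochondria. Its subunits and the proteins of the ribosome have mRNAs annotated with very different lengths. Here full-length cDNA was amplified with a SMART-Seq kit and cut and tagged with Nextera XT, per the labels' protocols, and a read count was not divided by transcript length. Fragment sizes and RNA quality values were not at hand, so that their part in the differences below was not tested.

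The coding sequences of 3 small proteins are shown as examples of genes on which the sides differed most. Ndufa1, a subunit of respiratory complex I, had the largest lower value outside the 20 by the rule for naming genes. Ost4, a subunit of the oligosaccharyltransferase that glycosylates secretory proteins, has the shortest coding sequence of the 3, with 114 bases. Scgb1b27, a secretoglobin of saliva (a small secreted protein also called an androgen-binding protein subunit), was the one of the 20 with the largest log2 difference. Capitals mark the start and stop codons. The sequences are those of the principal transcripts in GENCODE mouse release M21 on GRCm38, read 5′ to 3′.
Ndufa1: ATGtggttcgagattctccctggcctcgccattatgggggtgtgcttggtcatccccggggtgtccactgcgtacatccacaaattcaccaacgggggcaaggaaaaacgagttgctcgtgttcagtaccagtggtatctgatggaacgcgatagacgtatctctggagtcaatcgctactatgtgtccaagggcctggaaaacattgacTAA
Ost4: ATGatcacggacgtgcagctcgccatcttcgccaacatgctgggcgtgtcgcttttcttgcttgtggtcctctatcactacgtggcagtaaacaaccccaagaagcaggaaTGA
Scgb1b27: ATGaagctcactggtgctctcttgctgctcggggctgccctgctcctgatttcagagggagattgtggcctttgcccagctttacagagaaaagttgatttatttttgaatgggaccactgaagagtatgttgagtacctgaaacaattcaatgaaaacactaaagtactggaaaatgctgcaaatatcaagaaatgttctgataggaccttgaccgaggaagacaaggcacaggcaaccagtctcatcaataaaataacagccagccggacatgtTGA
The Ndufa1 gene lies on chromosome X from 37187588 to 37191163, and its transcript of 419 bases holds 213 coding bases. The Ost4 gene lies on chromosome 5 from 30905885 to 30907788, with a principal transcript of 1144 bases. The Scgb1b27 gene lies on chromosome 7 from 34021483 to 34022881, and its transcript of 493 bases holds 279 coding bases.

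In the low-share libraries the 20 genes held 34.6% (PreIR-GFP 1), 49.6% (PreIR-GFP 2), 41.9% (PreIR-GFP 5), 43.8% (PreIR-NTN 2) and 48.2% (PreIR-NTN 3) of the reads. In the high-share libraries they held 60.1% (PreIR-GFP 3), 52.4% (PreIR-GFP 4), 54.3% (PreIR-NTN 1), 53.1% (PreIR-NTN 4) and 56.2% (PreIR-NTN 5). The libraries just inside and just outside the limit were PreIR-GFP 2 and PreIR-GFP 4, and PreIR-GFP 1 lay farthest from it. The NonIR libraries, which did not enter the split, held 47.6%, 53.3% and 52.2% and so lay on both sides of 51%. Across the labelled groups the share was 47.7 ± 9.82% in PreIR-GFP (SD, n = 5), 51.1 ± 5.06% in PreIR-NTN (SD, n = 5) and 51 ± 3% in NonIR (SD, n = 3). The 3 pairs of groups differed by −3.33 points (PreIR-GFP minus NonIR, exact permutation p = 0.643), 0.0822 points (PreIR-NTN minus NonIR, exact permutation p = 0.964) and 3.41 points (PreIR-NTN minus PreIR-GFP, exact permutation p = 0.516). These two-sided tests gave an adjusted p of 0.964 for every pair (Benjamini-Hochberg over 3, exact permutation). The smallest p they allow is 0.0179 against NonIR and 0.00794 between the vectors.

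The working name of the sides would be secretory-low and secretory-high, and how far the data bear that out depends on the scale. Of the 20 genes 13 encode secreted proteins and 7 do not. The mean share was lower in the low-share libraries for 8 of the 13 secreted genes and higher for 5, namely Car6, a carbonic anhydrase of saliva, Prol1, Bpifa2, Crisp3 and Klk1. Scaled to library size by TMM (trimmed mean of M values), a scale set by the bulk of genes, 11 of the 13 were lower and 2 higher: Car6 (−0.30 on the log2 scale), Klk1 (−0.30) and Prol1 (−0.05) turned to lower, and Bpifa2 and Crisp3 stood at 0.03 each. In shares, the 20 genes together differed by −11.6 points, of which Mucl2, a small mucin-like protein, accounted for −5.43 and the 3 secretoglobins Scgb1b27, Scgb2b27 and Scgb2b26 for −7.22. The 7 genes that are not secreted together had 0.621 points more in the low-share libraries, and 6 of them had a higher share there. On the TMM scale 3 of the 7 were higher, among them Tspan12 (0.20) and Map3k1 (0.16), and 4 lower, namely Sdc4 (−0.24), Ptp4a2 (−0.01), Tmem250-ps (−0.14) and Actb, the cytoskeletal actin (−0.74), which was lower on both scales.

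**Figure D1:**
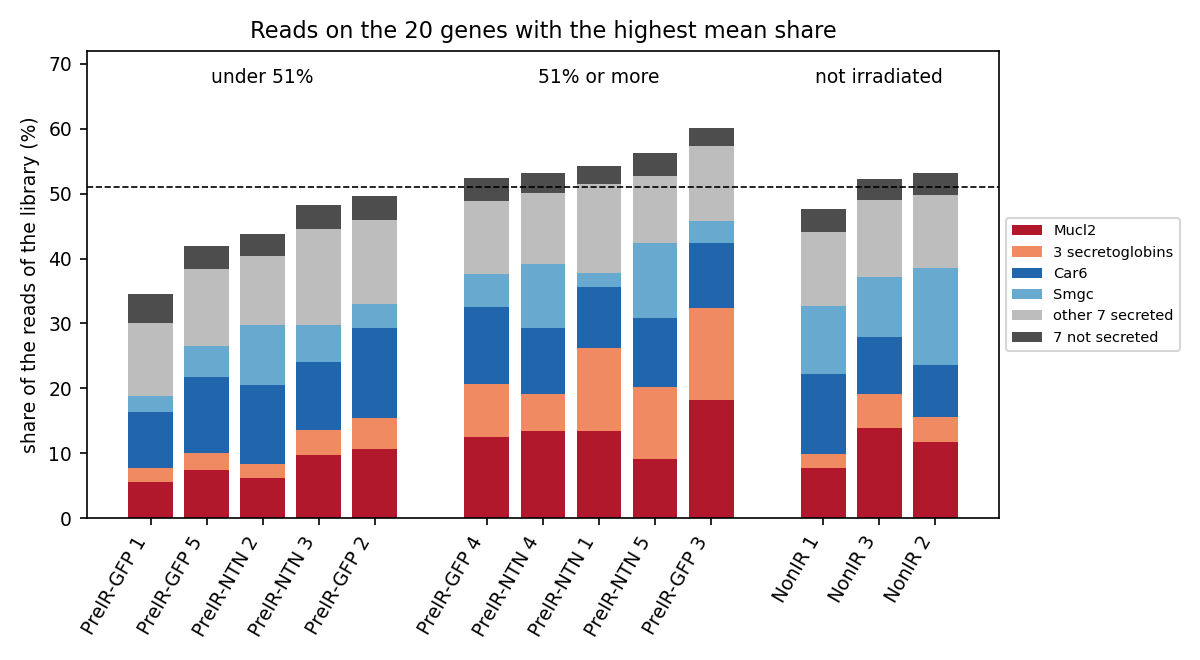
Stacked bars give the share of each library's reads (%) on the 20 genes, grouped by gene, for the 5 low-share, 5 high-share and 3 NonIR libraries; the dashed line marks 51%. Mucl2 and the 3 secretoglobins differ most between the sides (−5.43 and −7.22 points), while Car6 has a mean share of 11.3% in the low-share and 10.5% in the high-share libraries.

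Scgb1b27 took 0.889%, 1.83%, 1.17%, 0.996% and 1.60% of the reads of PreIR-GFP 1, PreIR-GFP 2, PreIR-GFP 5, PreIR-NTN 2 and PreIR-NTN 3. It took 7.41%, 3.28%, 6.01%, 2.03% and 5.90% of those of PreIR-GFP 3, PreIR-GFP 4, PreIR-NTN 1, PreIR-NTN 4 and PreIR-NTN 5. The sides did not overlap, and PreIR-NTN 4 lay closest to the low-share libraries. On the TMM scale the difference low minus high was −2.36 (log2) for Scgb1b27, −1.93 for Scgb2b27 and −2.12 for Scgb2b26. Mucl2 stood at −1.17 and was also without overlap, with shares of 7.90 ± 2.19% and 13.3 ± 3.27% (SD, n = 5 each). The secretoglobin genes are near copies of each other and the kallikreins likewise, and the labels do not say how reads that fit several copies were counted, so values of single members are uncertain.

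Smgc, Car6 and Prol1, which took the most reads among the longer secretory mRNAs, had shares that overlapped between the sides. Smgc, the mucin-like submandibular gland protein C with a transcript of 2977 bases, took 5.18 ± 2.58% of the reads in the low-share and 6.37 ± 4.09% in the high-share libraries (SD, n = 5 each). Car6, with 1567 bases, took 11.3 ± 1.95% and 10.5 ± 0.881%, and Prol1, a proline-rich salivary protein, 4.86 ± 1.04% and 3.69 ± 1.05%. On the TMM scale Smgc stood at −0.56, and Klk1b26, a kallikrein with 1386 bases, at −0.99, also with overlap. Of the 20 genes 8 had a principal transcript under 1000 bases, and 7 of these had a TMM log2 difference below 0, all but Bpifa2, a salivary defence protein. Of the 11 of at least 1000 bases, 7 were below 0 and 4 above.

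Outside the 20 genes, the low-share libraries had fewer reads on short mRNAs. Length here is that of the principal transcript of a protein-coding gene, and the break points, and the use of the principal transcript in place of the median over a gene's coding transcripts, were chosen after a first look at this pattern. The median log2 difference low minus high was −1.58 over 144 genes under 600 bases, −0.78 over 585 genes from 600 to under 1000 bases and −0.06 over 2668 genes from 1000 to under 2000 bases. It was 0.02 over 5167 genes from 2000 to under 4000 bases and 0.11 over 4058 genes of 4000 bases or more. In the shortest class 91.7% of genes were lower in the low-share libraries, against 33.1% in the longest. The filter on low counts could keep a gene through the high-share libraries alone. With no such filter the class under 600 bases held 352 genes with a median of −1.04, and 74.4% of them were lower. With the median over coding transcripts as the length, the class under 600 bases held 454 genes with a median of −0.30, and with the longest coding transcript 122 genes with a median of −1.64.

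The order was present within each vector. Within PreIR-GFP the medians ran from −1.59 under 600 bases to 0.12 at 4000 bases or more, and within PreIR-NTN from −1.60 to 0.07. The difference between the vectors themselves, PreIR-NTN minus PreIR-GFP, had medians between −0.12 and −0.01 over the same classes. Across 12622 genes, which are not independent replicates and share these libraries, Spearman's rank correlation between the log2 difference and transcript length was 0.34. It was −0.43 with the GC content of the same transcript and −0.10 with the mean level, and length and GC were themselves related with a rank correlation of −0.24. Within each of 4 classes of GC content, genes under 600 bases had the lowest median and genes of 4000 bases or more the highest. Those medians were −0.77 and 0.21 under 45% GC, and −1.68 and −0.10 at 55% GC or more. Likewise, within each length class the median was lower at 55% GC or more than under 45% GC. From 2000 to under 4000 bases, for example, these medians were −0.13 and 0.16.

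**Figure D2:**
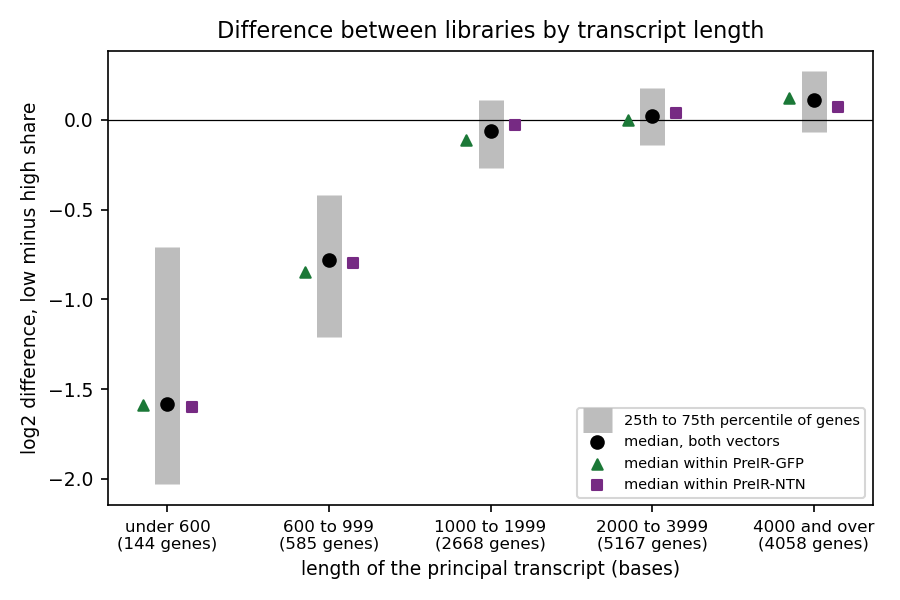
For 5 classes of principal transcript length (bases), grey bars span the 25th to 75th percentile of the log2 difference, low minus high share, over genes outside the 20; dots, triangles and squares are the median for both vectors, within PreIR-GFP and within PreIR-NTN. The median goes from −1.58 under 600 bases to 0.11 at 4000 bases or more, in much the same way within each vector.

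The same measure can be read in each library as a short minus long score, the median centred log2 level of the genes under 600 bases minus that of the genes of 4000 bases or more. The low-share libraries scored −1.20 (PreIR-GFP 1), 0.09 (PreIR-GFP 2), −1.12 (PreIR-GFP 5), −1.11 (PreIR-NTN 2) and −0.40 (PreIR-NTN 3). The high-share libraries scored 1.22 (PreIR-GFP 3), 0.63 (PreIR-GFP 4), 0.99 (PreIR-NTN 1), 0.15 (PreIR-NTN 4) and 1.32 (PreIR-NTN 5). The sides did not overlap but came close, at PreIR-GFP 2 and PreIR-NTN 4. The NonIR libraries, outside the split, scored −0.83, −0.06 and 0.19, and the lowest score was that of NonIR 1, which also had the lowest share of the 3. As plain reads, genes under 600 bases took 0.490 ± 0.202% of the reads outside the 20 in the low-share and 1.27 ± 0.339% in the high-share libraries (SD, n = 5 each). Genes of 4000 bases or more took 29.3 ± 1.79% and 26.3 ± 0.623%.

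**Figure D3:**
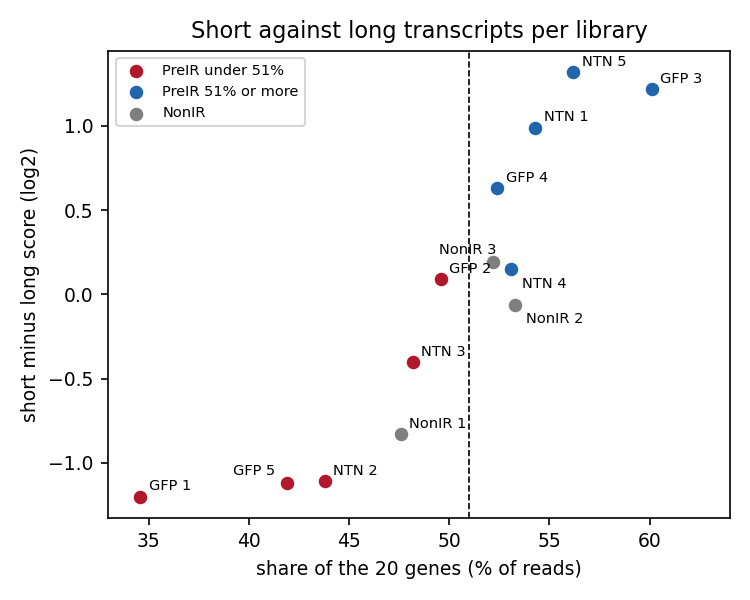
Each point is 1 of the 13 libraries, with the share of the 20 genes (% of reads) on the horizontal axis and the short minus long score (log2) on the vertical axis; the dashed line marks 51%. The 5 low-share libraries lie between −1.20 and 0.09 and the 5 high-share libraries between 0.15 and 1.32.

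By single genes, the low-share and high-share libraries did not overlap for 850 of the 14707 genes tested outside the 20. In the low-share libraries 660 of them were lower, which is 4.49% of the genes tested, and 190 were higher, which is 1.29%. Since the split was chosen from the same reads, nothing is read from these shares beyond the contrast between classes of genes. In the class under 600 bases 38.2% of genes were lower without overlap and 0 of 144 were higher, while at 4000 bases or more 1.38% were lower and 1.72% higher. The 552 genes with a length that were lower without overlap had a median length of 1179 bases, the 150 that were higher 3814.5 bases, and all genes 3003 bases. In the same order, the median GC content was 54.8%, 43.5% and 50.2%. The split between directions depends on the scaling: with library totals in place of TMM, 309 genes were lower and 2134 higher, and the median over all genes outside the 20 moved from 0.02 to 0.46. On that scale genes under 600 bases still had a median of −1.18 and genes of 4000 bases or more one of 0.56. Without PreIR-GFP 2, 1348 genes were lower and 516 higher.

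The 12 genes with the largest lower values by the naming rule were mostly small subunits of large complexes, and 9 had transcripts under 1000 bases. Of the respiratory chain there were Ndufa1 (−2.87), Ndufa5 (−2.61), Ndufa2 (−2.48) and Ndufs5 (−2.36) of complex I and Cox6b1 (−2.39) of cytochrome c oxidase. Of the glycosylation machinery there were Ost4 (−2.40) and Krtcap2 (−2.39), both of the oligosaccharyltransferase. The remaining 5 were Mrps21 (−2.46), a mitochondrial ribosomal protein, Elob (−2.45) and Anapc13 (−2.40), of ubiquitin ligase complexes, Sem1 (−2.36), a small subunit of the proteasome lid, and Hba-a1 (−2.47), an alpha globin whose reads can be shared with its copy.

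Ndufa1 stood at 7.32, 33.8, 13, 11.5 and 24.8 CPM (read counts relative to library size, TMM-scaled) in PreIR-GFP 1, PreIR-GFP 2, PreIR-GFP 5, PreIR-NTN 2 and PreIR-NTN 3. It stood at 199, 78.5, 130, 46.9 and 198 CPM in PreIR-GFP 3, PreIR-GFP 4, PreIR-NTN 1, PreIR-NTN 4 and PreIR-NTN 5, and at 22, 33.8 and 53.4 CPM in the NonIR libraries. All low-share libraries lay below all high-share ones, with the smallest gap between PreIR-GFP 2 and PreIR-NTN 4. The NonIR libraries lay between the 2 extremes and overlapped both sides.

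Ost4 was at 1.67, 8.45, 3.09, 3.70 and 5.46 CPM in the low-share libraries and at 31.4, 20.4, 22.3, 13.3 and 29.3 CPM in the high-share libraries, in the order used above. Cox6b1 averaged 52.2 ± 31.3 CPM in the low-share and 268 ± 97.3 CPM in the high-share libraries (SD, n = 5 each). For all 12 genes PreIR-GFP 2 was the highest of the low-share libraries, PreIR-NTN 4 the lowest of the high-share libraries and NonIR 1 the lowest of the NonIR libraries. The order of the libraries was thus much the same from gene to gene.

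The 12 genes with the largest higher values were all long, from 3145 to 13380 bases, and their differences were smaller, from 0.57 to 0.76. Med14 (0.76), a scaffold of the Mediator complex of transcription, was at 15, 12.2, 12.3, 12.7 and 14.9 CPM in the low-share and 7.98, 6.54, 8.89, 7.25 and 9.91 CPM in the high-share libraries. The sides lay apart and the NonIR libraries, at 9.38, 9.87 and 7.60 CPM, lay with the high-share ones. Nfat5 (0.67), the transcription factor of the response to high salt, averaged 24.8 ± 7.67 and 15.6 ± 2.59 CPM, and Taok1 (0.58), a protein kinase, 93.3 ± 24.7 and 61.2 ± 5.91 CPM (SD, n = 5 each). Rev3l (0.71) is the catalytic subunit of the translesion DNA polymerase zeta, Senp7 (0.63) a SUMO protease, Qk (0.61) an RNA-binding protein and Rab8b (0.57) a small GTPase of membrane traffic. The other members were Impact (0.75), Tceanc (0.69), Dcaf17 (0.65), Dtwd2 (0.61) and Zmat1 (0.60). For all 12, PreIR-GFP 1, the library of lowest share and fewest reads, was the highest of the 10 irradiated libraries.

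**Figure D4:**
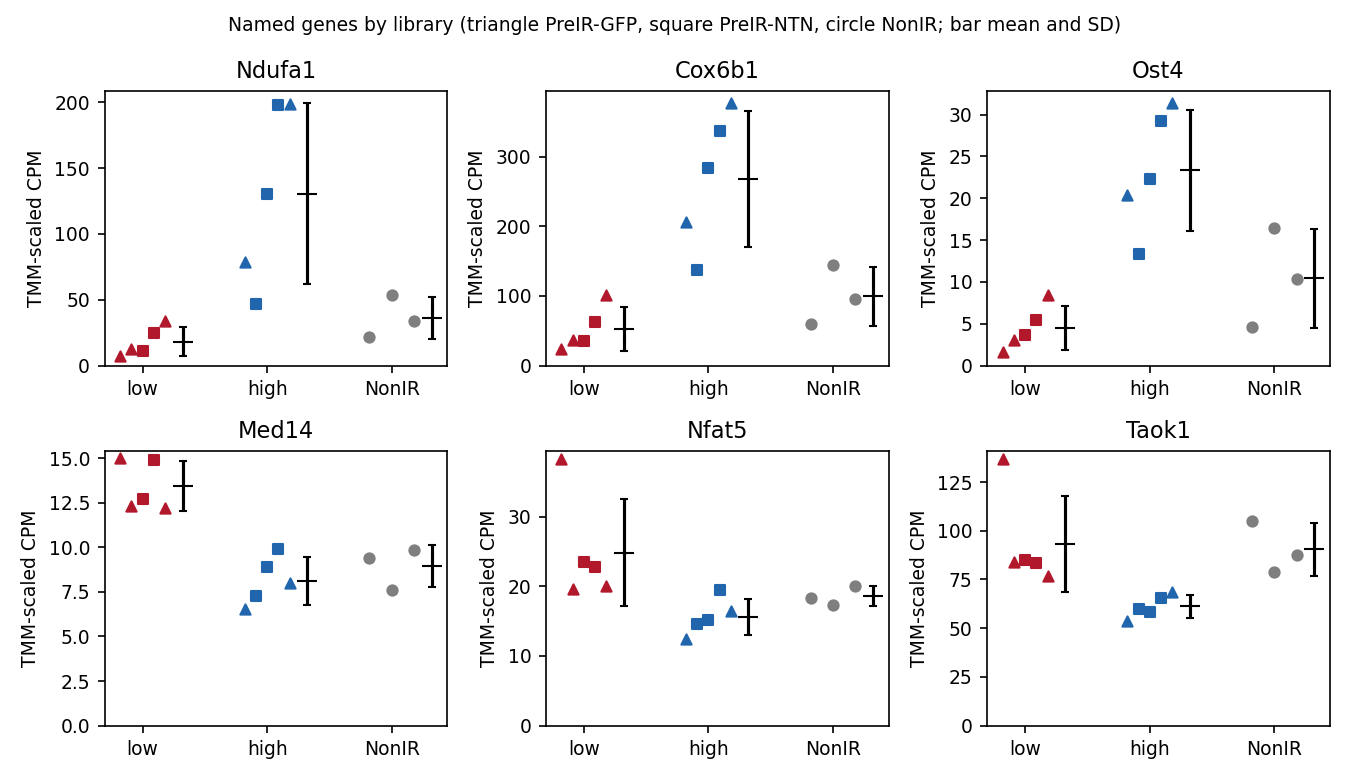
TMM-scaled CPM of 3 genes with lower values (Ndufa1, Cox6b1, Ost4) and 3 with higher values (Med14, Nfat5, Taok1) in every library, with the mean and SD of each side. The 5 low-share libraries lie below the 5 high-share ones in the upper row and above them in the lower row, and the 3 NonIR libraries are drawn beside them.

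Among genes of the respiratory chain, members with short mRNAs mostly had lower values than members with long ones. The part of GC content within this list and the ribosomal list below was not tested. Of 34 nuclear genes for respiratory chain subunits, 26 had a lower value in the low-share libraries, with a median of −0.63, against 0.02 over all genes outside the 20. The 15 subunits under 1000 bases all had lower values, from −2.87 to −0.83, and 14 of them were without overlap. Of all genes outside the 20, 4.49% were lower without overlap. By length, that share was 38.2% under 600 bases and 30.1% from 600 to under 1000 bases. The 19 subunits of 1000 bases or more had a median of −0.04 and ran from −1.02 to 0.12, 2 of them without overlap. Spearman's rank correlation with length over the 34 members was 0.85, as a description over genes measured in the same libraries.

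Examples of both kinds follow, chosen after their values were seen. Sdha, the flavoprotein of complex II with 2900 bases, averaged 540 ± 89.7 CPM in the low-share and 525 ± 72.4 CPM in the high-share libraries (SD, n = 5 each). Atp5a1, the alpha subunit of ATP synthase with 2471 bases, averaged 785 ± 132 and 735 ± 79.1 CPM. Cox6c, a small subunit of cytochrome c oxidase with 738 bases, averaged 45 ± 18.1 and 160 ± 62.8 CPM, without overlap. Cycs, cytochrome c, went against the order of lengths, at −0.86 without overlap and with a principal transcript of 3123 bases. Of the 13 genes encoded by the mitochondrial genome 7 passed the filter on low counts, with a median of −0.19 that turned to 0.25 with library totals. The nuclear list stayed below 0 on that scale, at −0.23.

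Cytosolic ribosomal proteins had lower values among short members and, to a lesser degree, among longer ones too. Of 40 genes 39 had lower values, with a median of −1.15, and 14 were without overlap (4.49% of all genes). Of the 23 members under 1000 bases, 10 were without overlap. Over all genes that share was 38.2% under 600 bases and 30.1% from 600 to under 1000 bases. The 23 members under 1000 bases had a median of −1.25 and the 17 longer ones −0.52. Of these 17, 16 were lower, 4 of them without overlap. Spearman's rank correlation with length over the list was 0.48, again as a description. Rpl37 (−2.23) and Rpl38 (−2.14), small proteins of the large subunit, had the lowest values. Rpl4 (0.10), Rpl3 (−0.02) and Rplp0 (−0.15), large proteins of the same subunit, were close on both sides. Rpl4 averaged 618 ± 36.4 CPM in the low-share and 569 ± 113 CPM in the high-share libraries (SD, n = 5 each). Rps20, with a principal transcript annotated at 3706 bases, stood at −1.73 without overlap. Other members of 1000 bases or more were low too, such as Rpl28 (−1.89, 1106 bases), Rpl23 (−1.54, 1059 bases) and Rpl18 (−1.32, 2989 bases). With library totals the list's median was −0.75.

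**Figure D5:**
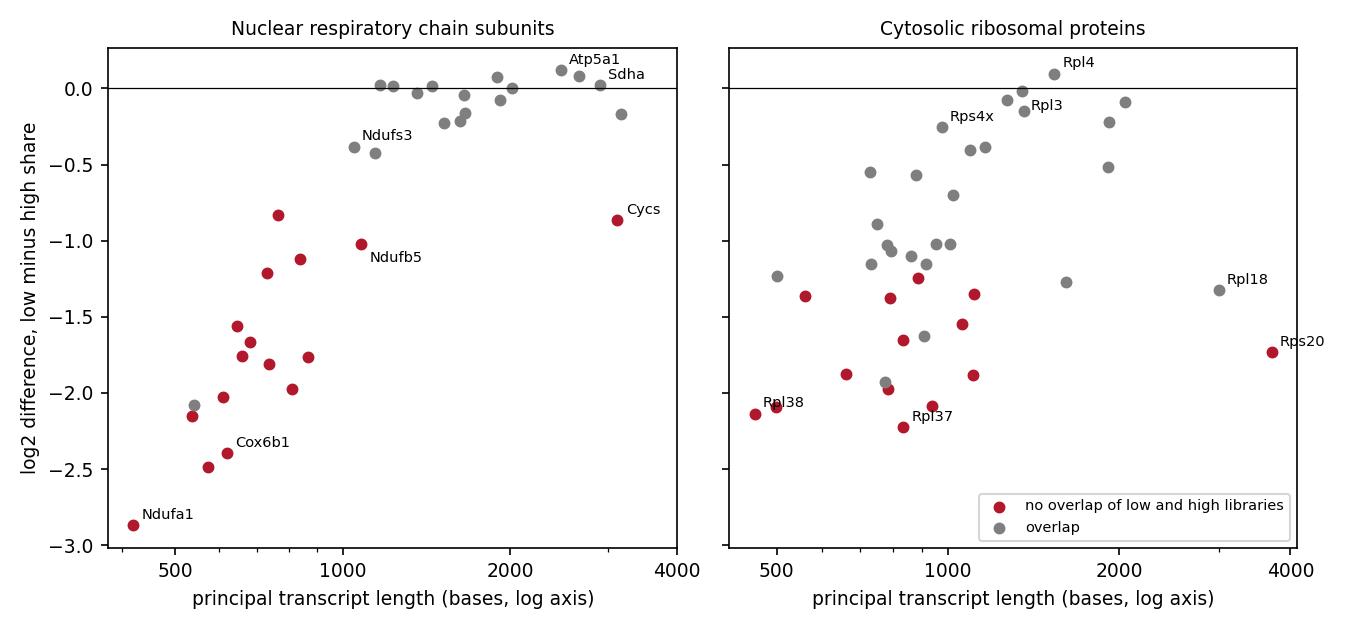
Each point is a gene of the nuclear respiratory chain list (34 genes) or the cytosolic ribosomal list (40 genes), with principal transcript length (bases, log axis) on the horizontal axis and the log2 difference low minus high share on the vertical axis; red marks genes whose low-share and high-share libraries do not overlap. Short members such as Ndufa1 and Rpl38 lie lowest, and Cycs, Rpl18 and Rps20 are long members with values well below 0.

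The machinery that makes and moves secretory proteins had medians nearer 0. Of 29 translocation and traffic genes 21 had lower and 8 higher values, with a median of −0.13, and 4 were lower without overlap (4.49% of all genes). Those 4, of which 2 have principal transcripts of 1000 bases or more, encode small proteins: Sec61b (−0.93) and Sec61g (−1.45) of the translocation channel, Ssr4 (−1.43) of the translocon-associated complex and Dad1 (−1.48) of the oligosaccharyltransferase. Their larger partners Sec61a1 (−0.08), Rpn1 (−0.07) and Ssr1 (0.19) were near 0. Chaperones of the endoplasmic reticulum had a median of −0.10 over 23 members and exocytosis genes −0.09 over 16. With library totals in place of TMM these 3 medians became 0.29, 0.32 and 0.34, the shift that all genes took.

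Salivary products outside the 20 mostly had lower values. Of 15 acinar genes 12 had lower values, with a median of −0.54, and 0 were without overlap, where the share over all genes was 4.49%. Of those with a length, the 7 under 1000 bases had a median of −1.85. The 7 longer ones had a median of −0.34, and 2 of these were higher. With library totals the list's median was −0.12. Dcpp1, a demilune cell protein with 617 bases, averaged 52.5 ± 54.6 CPM in the low-share and 206 ± 108 CPM in the high-share libraries (SD, n = 5 each). Some lower members had very low levels on both sides, such as a gene at 0.171 CPM in the low-share and 0.512 CPM in the high-share libraries. Acinar identity genes were closer, with the water channel Aqp5 at −0.44 and the transcription factor Bhlha15 at −0.34. Bhlha15 stood at −0.63 within PreIR-GFP and at −0.03 within PreIR-NTN. Among the members with higher values were Slc12a2 (0.25) and Chrm3 (0.34). Chrm3 averaged only 3.14 CPM in the low-share and 2.46 CPM in the high-share libraries. Its difference was −0.33 within PreIR-GFP and 1.06 within PreIR-NTN. Aqp5 ran from 134 to 193 CPM in the low-share and from 188 to 269 CPM in the high-share libraries, and from 155 to 199 CPM in NonIR.

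Granular convoluted tubule genes had lower values among short and longer members. Of 16 genes outside the 20, 14 had lower values and 0 were without overlap, with a median of −0.92, a median of −1.04 over the 10 under 1000 bases and −0.81 over the 6 longer ones, of which Esp18 (1.87) and Nrp1 (0.23) were higher. Egf, epidermal growth factor with 4761 bases, was at 214, 887, 385, 910 and 618 CPM in the low-share and at 405, 1340, 1520, 1120 and 1210 CPM in the high-share libraries. The sides overlapped, since PreIR-GFP 3, the library of highest share, was among the low values. Leaving out PreIR-GFP 1 and PreIR-GFP 5, the 2 libraries of lowest share, changed the list's median to −0.48, and leaving out PreIR-GFP 2 changed it to −1.62. The list's summed level ran from 16100 to 71500 CPM in the low-share and from 48300 to 65800 CPM in the high-share libraries, the 4 members among the 20 included. In whole tissue, fewer cells of a type and less RNA per cell cannot be told apart.

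Markers of other cell types differed less than the short mRNAs. Over members outside the 20 the median was 0.05 for fibroblast and matrix genes, 0.16 for endothelial cells and pericytes, −0.04 for macrophages, 0.00 for T and NK cells, −0.24 for myoepithelial cells and 0.19 for basal and progenitor duct cells. With library totals the values for macrophages and myoepithelial cells turned to 0.41 and 0.18. The fibroblast median was 0.17 within PreIR-GFP and −0.19 within PreIR-NTN and turned to −0.07 without PreIR-GFP 1, and that of T and NK cells ran from −0.39 to 0.13 without 1 library. B and plasma cell genes had 12 of 16 members higher, with a median of 0.61, which was 1.14 within PreIR-GFP and 0.03 within PreIR-NTN, and 0.35 without PreIR-GFP 1 and PreIR-GFP 5. Their summed level ran from 932 to 3650 CPM in the low-share and from 1080 to 2360 CPM in the high-share libraries, and Ms4a1, a defining marker, stood at most at 1.43 CPM. Igha, the heavy chain of immunoglobulin A, was at 1100 CPM in PreIR-GFP 1 and at 15.5 CPM in PreIR-NTN 2, both low-share libraries.

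Skeletal muscle genes marked a single library. Acta1, the actin of muscle fibres, stood at 80.9 CPM in PreIR-GFP 2 and at most at 0.793 CPM in any of the other 12 libraries, and Ckm, muscle creatine kinase, at 43.9 CPM there and at most at 2.67 CPM elsewhere. The list's median was 1.25 over the 5 of 18 members that passed the filter, and it turned to −0.67 when the share itself was used as the covariate. PreIR-GFP 2 was also the low-share library closest to the limit, and the part of muscle RNA in its values was not tested. The adipocyte markers Adipoq and Plin1 stood at most at 3.99 and 0.293 CPM. Of the sublingual gland, Nkx2-3 and Muc5b stood at most at 0.0782 and 0.363 CPM, and the myoepithelial receptor gene Oxtr had reads in 1 library only.

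Stress and regulatory programmes had medians near 0, with single members on both sides. The medians were 0.06 for p53 and DNA damage genes, 0.11 for immediate early genes, 0.07 for cell cycle genes, −0.10 for interferon response genes, −0.02 for clock genes and 0.14 for nuclear retained and splicing RNAs. Long members lay away from 0 as well, such as Fos (1.13) and Jund (−0.78) of the immediate early genes and Mki67 (1.01) and Plk1 (−0.92) of the cell cycle genes. Heat shock genes had a median of −0.06, yet their 2 members under 1000 bases, the mitochondrial chaperonin Hspe1 and the small heat shock protein Hspb1, were at −1.54 and −1.50. Hspd1, the long partner of Hspe1 in the same chaperonin, was at 0.07. Nerve and glia genes had a median of 0.29 over 16 members, MHC class II genes −0.28 over 10 and duct and ion transport genes −0.02 over 19. The nerve and glia median was 0.04 within PreIR-GFP, 0.08 within PreIR-NTN and 0.05 without PreIR-GFP 1. Sublingual mucous genes had a median of −0.32 over 3 members, granulocyte and mast cell genes −0.11 over 4, and adipocyte genes 0.08 over 10. The directions of medians this small hang on the scaling: with library totals those for interferon response, clock, heat shock, duct, sublingual and granulocyte genes turned to 0.31, 0.40, 0.39, 0.42, 0.09 and 0.36. The MHC class II median turned to 0.13 with library totals and to 0.19 without PreIR-GFP 4.

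The vector comparison did not choose the sides and was tested with the side in the fit. Serping1, the inhibitor of complement C1, was lower in PreIR-NTN than in PreIR-GFP, with a log2 difference of −1.21 (SE 0.17) and an adjusted p of 0.0237 in the edgeR test. It was at 63.1, 49.4, 52.2, 89.8 and 53.2 CPM in PreIR-GFP 1 to 5 and at 23.4, 34.0, 24.9, 23.7 and 27.1 CPM in PreIR-NTN 1 to 5, so that the vector groups did not overlap. NonIR stood between them, at 40.9, 42.7 and 47.3 CPM. Dpt, the matrix protein dermatopontin, was lower too, with a log2 difference of −1.31 (SE 0.19) and an adjusted p of 0.0237 in the edgeR test.

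Dpt was at 22.9, 11, 15, 18.4 and 18.8 CPM in PreIR-GFP and at 5.52, 5.98, 8.96, 6.74 and 7.06 CPM in PreIR-NTN. Again the vector groups lay apart, and NonIR, at 13.7, 14.1 and 15.9 CPM, lay within PreIR-GFP. Between low-share and high-share libraries Serping1 and Dpt differed by −0.06 and 0.14. These 2 genes were all that edgeR called of 14727 tested, which is 0.0136%, and 834 had an unadjusted p under 0.05. Leaving out 1 library gave between 0 and 4 calls. Serping1 lost the call without NonIR 1, NonIR 2, PreIR-GFP 1, PreIR-NTN 1, PreIR-NTN 3 or PreIR-NTN 4. Dpt lost it in those cases and without PreIR-GFP 3, PreIR-GFP 4, PreIR-GFP 5 or PreIR-NTN 2.

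Neurturin, a survival factor of parasympathetic neurons, binds Gfra2, which signals together with the receptor kinase Ret. Nrtn, its gene in the mouse, was at 2.68, 7.98, 10.9, 6.95 and 2.5 CPM in PreIR-GFP 1 to 5 and at 10.9, 3.28, 4.81, 6.89 and 12.8 CPM in PreIR-NTN 1 to 5. The vector groups overlapped nearly in full (log2 difference 0.04 with SE 0.37, adjusted p = 0.996 in the edgeR test). These are reads on the Ensembl entry of the mouse gene, and the 24 spike-in and transgene entries, with 45 reads in all, were left out. Whether reads from the vector fell on Nrtn was not tested, so these values do not measure the RNA that the vector made. By side, Nrtn averaged 4.25 ± 2.28 CPM in the low-share and 9.69 ± 2.64 CPM in the high-share libraries (SD, n = 5 each), a difference of −1.18 with a transcript of 1023 bases. Ret averaged 26.0 ± 3.95 and 32.1 ± 4.72 CPM, and Gfra2 0.625 ± 0.523 and 0.519 ± 0.279 CPM, and the sides overlapped for all 3 genes.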

How the data were processed

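RNA from 13 submandibular gland libraries was analysed. The submitters' processing notes name the aligner STAR 2.5.2a, the build GRCm38.p3 or mm10, and DESeq2, edgeR and limma without their part, and they name no counting tool. The authors deposited raw counts per gene for 48709 Ensembl entries, which were used for every result, and 24 spike-in and transgene entries with 45 reads in all, which were left out. The authors also deposited a normalised signal table of 17957 entries, found on testing to be the counts times 1 constant per library, and it was not used further. The members and gene lists were chosen with earlier results of these data known.

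Genes were kept by filterByExpr over the labelled groups (14727 genes, all of the 20 included) and scaled by TMM. The quasi-likelihood fit of edgeR 4.0.16 (R 4.3.3, robust) to all 13 libraries had 1 mean per group and a term for the side, whose coefficient is the log2 difference low minus high. The vector contrast in that fit was tested (two-sided, threshold 0.05), adjusting over all genes by Benjamini-Hochberg. Its common dispersion was 0.0511 with 9 residual degrees of freedom. CPM were TMM-scaled, and log2 levels used a prior count of 2. Differences within a vector are plain differences of mean log2 CPM. "Without overlap" means that all CPM values of one side lay below all of the other. Named genes were those outside the 20 with a regular symbol, at least 5 CPM on average, no overlap and the same sign within each vector, taking the 12 largest differences per direction, plus called genes. Of 463 lower and 115 higher candidates, 24 were named. Genes described as members of a list, the receptors and the exceptions to length order were singled out after their values were seen.

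Symbols and principal transcripts came from the deposited table and GENCODE M21 (GRCm38), and 36 genes tested had no symbol. Some genes are not reported here. The scripts were tested on simulated data. Counts of 0 allow up to 3 reads, and errors cover counting and library spread only, since PCR reads without molecular identifiers are not independent molecules. Alternatives included DESeq2 1.42.0, limma-voom (limma 3.58.1), library totals and leaving out each library. The series text names another instrument, other aligners and triplicates, which do not match the 13 labelled libraries, and the sample labels were followed.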

Additional observations from a re-analysis of the deposited data

Results flagged for a closer look

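Within each vector group of 5 libraries, 100 sets of values were checked for a library far from the other 4 (Dixon's ratio). Of these, 3 were found, all of them PreIR-GFP 1 within PreIR-GFP. Chance gives about 1 in 20 for independent sets. These sets share libraries and include genes chosen by share or by the split, so nothing is read from the count. Bpifa2 took 4.47% of the reads of PreIR-GFP 1, above the other 4. Dtwd2 stood at 14.1 CPM and Qk at 28.1 CPM. PreIR-GFP 1 was the library of fewest reads and lowest share, and the part of depth in these values was not tested.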

How the results depend on the processing

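Taking the 10 or 50 top genes, or leaving out mitochondrial and ribosomal RNA genes, kept every low-share library below every high-share library. Only the order of the libraries was compared, since the limit set for the 20 genes was not applied to these other sums. The share differences stayed above p = 0.05 (exact permutation) under all alternatives run, and leaving out 1 library gave −6.43 to −0.0478 points for PreIR-GFP minus NonIR, −1.62 to 1.92 for PreIR-NTN minus NonIR and 0.13 to 6.51 for PreIR-NTN minus PreIR-GFP. PreIR-NTN minus NonIR turned to −0.126 with the 10 top genes, and to −1.62, −0.701, −0.418 and −1.20 without NonIR 1, PreIR-NTN 1, PreIR-NTN 4 and PreIR-NTN 5.

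For the vector contrast, 37 genes were called by DESeq2, 1 with library totals, 283 of 28532 with no filter on low counts, 4 with the share as a continuous covariate, 3 by limma-voom, 3 without the side term, and 0 with only the 10 irradiated libraries or without PreIR-GFP 1 and PreIR-GFP 5 together (809 and 1079 at an unadjusted p under 0.05). Same-numbered PreIR-GFP and PreIR-NTN libraries had correlations of −0.37, −0.27, −0.16, 0.21 and −0.43. Those of differently numbered libraries ran from −0.5 to 0.53. So few values cannot settle whether the replicate numbers pair the libraries. With the replicate number as a block 0 genes were called (721 unadjusted). Serping1 kept its call in 14 of 23 alternatives (edgeR, DESeq2 or limma adjusted p from 1.07e-11 to 0.495) and Dpt in 9 of 23 (1.87e-10 to 0.495). The cause was not tested.

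Genes without overlap numbered 309 lower and 2134 higher with library totals. Leaving out 1 library gave 599 to 1348 lower and 190 to 516 higher; fewer libraries make separation easier. Without PreIR-GFP 1 and PreIR-GFP 5 together 427 were higher. None of 552 values of the 24 named genes changed sign, and 19 moved by more than the spread within a side. The naming rule asked for no overlap and 1 sign within both vectors, which largely fixed the signs in advance. The rank correlation with length was 0.24 with no filter, 0.27 with the median over coding transcripts, 0.29 with the block and 0.27 to 0.36 without 1 library. Low depth limits single genes at a few CPM.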
